A study of Homo sapiens with 24 samples.

Results

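The Nodal ligands NODAL and GDF3, the secreted inhibitors LEFTY1, LEFTY2, CER1 and FST, and the intracellular genes FOXH1, SMAD7 and SKIL are described here in human embryonic stem cells on 24 arrays. They were taken as every probe set whose annotation names 1 of these 9 genes. That gave 18 of the 54675 probe sets on the array. Each gene's value comes from the probe set that names it alone and has the highest mean over the 24 arrays. This gave a value for 8 of the 9 genes and for 19775 genes in all. The only probe set for LEFTY2, 206012_at, is annotated to LEFTY1 as well, so it is reported by its identifier and assigned to neither gene.

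Nodal and activin are secreted proteins of the TGF-beta superfamily that bind serine/threonine kinase receptors and lead to phosphorylation of SMAD2 and SMAD3, which enter the nucleus with SMAD4 and partners such as FOXH1. In human embryonic stem cells this signal supports the pluripotent state, and at higher strength it accompanies the formation of mesendoderm and endoderm. The pathway is known for its feedback loops: NODAL itself, LEFTY1, LEFTY2, CER1, SMAD7 and SKIL are among its targets in various cells, and most of them restrain it.

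The lines H1, H9 and HSF1 are established human embryonic stem cell lines. In 12 arrays each line was grown on feeders, which are mouse embryonic fibroblasts, or without them, and received DMSO or 250 nM AZD3965 for 5 days. AZD3965 blocks MCT1, which transports lactate. This gave 4 groups of 3 arrays, 1 array per line. The other 12 arrays hold H9 and HSF1 cells without feeders, kept in fibroblast-conditioned or unconditioned medium, with 3 biological replicates in each of the 4 groups. How long the conditioned medium was applied is not settled, because the labels say 5 days and the design text says 24 hours. Every value is an RMA log2 value, in which a difference of 1 is a doubling. Levels are compared between arrays for the same probe set and never between genes.

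The 2 feeder-supported HSF1 arrays stood apart: they correlated with the other 22 at r = 0.860 to 0.961, against 0.948 to 0.998 among those 22. Unconditioned H9 replicates 2 and 3 had differences between the 3' and 5' probe sets of ACTB, a sign of RNA quality, of 3.25 and 2.89, against 1.07 in replicate 1 and 1.42 to 1.84 in the conditioned H9 arrays. Human embryonic stem cell markers were high throughout: of 9 markers with a probe set, 0 lay under a log2 value of 5 on every array of any group. On feeders with DMSO the ACTB difference was also lower in each line, at 0.80 against 1.00 without feeders in H1, 0.56 against 1.00 in H9 and -0.15 against 0.65 in HSF1.

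The promoter of CER1 is shown because CER1 had the widest range of the 8 genes measured and a window that matched both a FOXH1 and a SMAD motif. The 250 bases before its start, at chr9:14722734-14722983 on the minus strand of GRCh38.p14 as RefSeq gives it, read as follows, with capitals marking the matches.
CER1: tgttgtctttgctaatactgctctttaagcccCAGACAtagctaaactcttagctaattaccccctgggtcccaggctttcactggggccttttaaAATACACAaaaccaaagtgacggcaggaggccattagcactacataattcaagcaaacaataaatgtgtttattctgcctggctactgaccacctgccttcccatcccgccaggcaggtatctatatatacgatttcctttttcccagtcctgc
The search covered 5 motifs on both strands in those 250 bases: AATCCACA and AATACACA (FOXH1), and GTCTAGAC, CAGACA and GGCGCC (SMAD proteins). In the CER1 window CAGACA lies at -218 to -213 and AATACACA at -154 to -147 from the start, both on the gene's strand, and they do not overlap. CAGACA was found in 13.6% of 35116 promoter windows of the same length and AATACACA in 0.666%. Of the 6 members with a window used here, SKIL also had a match, to GGCGCC, which 16.4% of windows hold. AATCCACA, in 0.709% of all windows, and GTCTAGAC, in 0.182%, had no match in the windows of these 6 members. These are matches of letters, not binding sites.

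The first comparison asked how culture on feeders, with DMSO, alters these genes. NODAL, LEFTY1, CER1 and FST were higher on feeders, by 1.45 to 3.42 log2 units, while GDF3, FOXH1, SMAD7 and SKIL did not pass the test. That is 4 of 8 genes higher and 0 lower (adjusted p under 0.05, limma), where 39.3% of 17218 genes tested passed in either direction and 15.2% were higher. Groups with no overlap were common, at 52.3% of all genes, with 21.7% higher on feeders. The median difference of the 8 genes was 1.08, against -0.189 over all genes. Of the genes called, 38.7% were higher, and 51.6% when the arrays were shifted to a common median; that shift moved the median of all genes to -0.111, and quantile normalization moved it to 0.01. The 4 members were called with both scalings. The samples are bulk cultures, so fewer cells of a type and less RNA per cell cannot be told apart.

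NODAL, the ligand, read 10.28 in H1, 10.60 in H9 and 9.58 in HSF1 on feeders, and 8.62, 7.54 and 7.36 without them. Each line was higher on feeders, and the groups did not overlap. The difference was 2.32 (SE 0.320, adjusted p = 0.00136), which is 4.99-fold. It was largest in H9, at 3.06, against 1.67 in H1 and 2.23 in HSF1. Among the probe sets of NODAL, 237896_at was also higher on feeders, by 1.70 (SE 0.274, adjusted p = 0.00306 over 33411 probe sets), while 220689_at differed by 0.38 and did not pass (adjusted p = 0.203). Over all probe sets naming 1 gene, 39% passed in this comparison.

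GDF3, a ligand related to NODAL that is expressed in pluripotent cells, was high in 1 feeder-supported line. It read 8.60, 9.94 and 8.03 in H1, H9 and HSF1 on feeders and 8.54, 8.0 and 7.91 without. The H9 array on feeders stood alone at the top, and the groups overlapped. The difference was 1.93 in H9 but 0.06 in H1 and 0.12 in HSF1, and the mean of 0.70 did not pass (SE 0.357, adjusted p = 0.118).

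LEFTY1, a secreted antagonist of Nodal and a classic target of the pathway, was higher on feeders in every line. Its values on feeders were 12.83, 12.26 and 11.64 in H1, H9 and HSF1. Without feeders they were 9.82, 9.05 and 7.60, so all 3 feeder-free arrays lay below all 3 feeder-supported ones. The difference was 3.42 (SE 0.292, adjusted p = 8.38e-05), or 10.7-fold, and ranged from 3.01 in H1 to 4.04 in HSF1. NODAL and LEFTY1 kept their calls in 11 of 11 alternative settings, those without any 1 line included. Without the feeder-supported HSF1 arrays their differences were 2.49 and 3.31, and with the ACTB covariate, which took the genes called from 6772 to 351, both were still called.

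Probe set 206012_at, which is annotated to LEFTY1 and LEFTY2, was higher on feeders in the 3 lines. It read 12.46, 11.53 and 11.23 on feeders and 8.81, 8.18 and 7.44 without. The groups were well apart, with differences of 3.65, 3.34 and 3.79 in H1, H9 and HSF1. In a fit over all 42032 probe sets above the filter, those naming several genes or none included, the difference was 3.60 (SE 0.242, adjusted p = 6.59e-06), where 39.5% of probe sets passed.

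CER1, the secreted antagonist Cerberus of Nodal, BMP and Wnt proteins, differed most between lines. It read 8.75 in H1, 11.57 in H9 and 7.32 in HSF1 on feeders, against 6.04, 5.77 and 5.81 without. Every line was higher on feeders and the feeder-free arrays lay close together. The difference was 5.80 in H9, 2.70 in H1 and 1.51 in HSF1, with a mean of 3.34 (SE 0.821, adjusted p = 0.0146). The feeder-free values lie under the array medians of 6.09 to 6.35, and how much of them is background was not tested. The call was lost without H1, at 3.65 (adjusted p = 0.0618), and with the ACTB difference as a covariate, at 3.54 (adjusted p = 0.148), with larger standard errors and no smaller a difference. Without the feeder-supported HSF1 arrays the difference was 4.42 (adjusted p = 0.00244).

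FST encodes follistatin, which binds activin and blocks it. Its values on feeders were 10.16, 10.88 and 9.51 in H1, H9 and HSF1, and 8.47, 8.75 and 8.97 without. The groups did not overlap, but the lowest feeder-supported and the highest feeder-free array were both HSF1, with a difference of 0.54 against 1.69 in H1 and 2.13 in H9. The mean difference was 1.45 (SE 0.353, adjusted p = 0.0139), and the call was lost without H1 or without H9, with adjusted p up to 0.108. Without the feeder-supported HSF1 arrays it was 1.92 (SE 0.138, adjusted p = 8.71e-05). Probe set 207345_at was higher by 0.89 (SE 0.297, adjusted p = 0.0360), and 226847_at differed by 1.42 (SE 0.559, adjusted p = 0.0604), with HSF1 at -0.57.

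The intracellular genes gave no call from their representing probe sets. FOXH1, the DNA-binding partner of SMAD2 and SMAD4, read 9.91, 10.28 and 9.74 on feeders and 10.48, 10.44 and 10.21 without, a difference of -0.39 (SE 0.204, adjusted p = 0.125). SMAD7, the inhibitory SMAD that acts on the receptors, read 9.38, 9.02 and 7.64 on feeders and 8.93, 8.36 and 8.09 without. It was higher on feeders in H1 by 0.45 and in H9 by 0.66 and lower in HSF1 by -0.45, and the mean of 0.22 did not pass (adjusted p = 0.577). Without the feeder-supported HSF1 arrays the difference was 0.65 (SE 0.152) and passed, with an adjusted p of 0.00829.

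SKIL, which encodes the nuclear corepressor SnoN, differed in size and call by probe set. The representing set 225227_at read 12.11, 11.97 and 11.85 on feeders and 12.28, 11.89 and 12.08 without, groups that overlapped (-0.10, adjusted p = 0.548). Probe set 217591_at read 7.54, 7.67 and 6.60 on feeders and 8.51, 8.30 and 8.23 without. It fell by 1.08 on feeders (SE 0.208, adjusted p = 0.00639). Probe set 206675_s_at read 6.58, 6.34 and 5.88 on feeders and 7.85, 7.57 and 7.22 without, and fell by 1.28 (SE 0.213, adjusted p = 0.00358). Both were lower on feeders in every line, so the size of the difference and the call for SKIL depend on the probe set. All 3 tested estimates lay below 0. With the mean of all its probe sets SKIL was lower on feeders by -0.36, with an adjusted p of 0.0396. Probe sets 215889_at and 232379_at of SKIL, which that mean includes, lay under the filter and were not tested. Their group means were higher on feeders, at 4.65 and 4.45 against 4.50 and 3.96 without. Of the 15 tested probe sets that name 1 member 6 were higher on feeders and 2 lower, where 39% of 33411 probe sets passed.

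**Figure D1:**
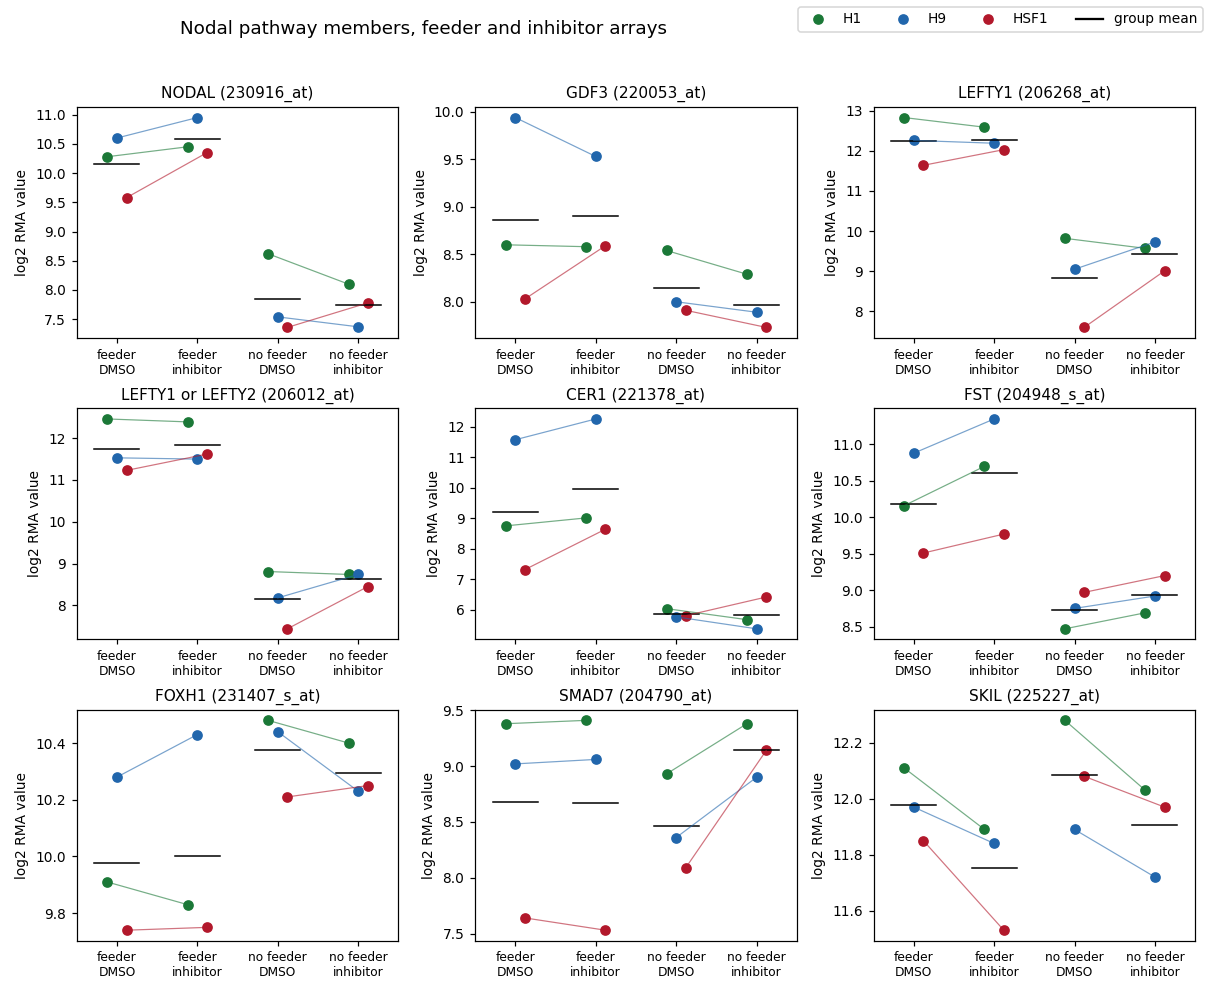
RMA log2 values of the 8 genes and of probe set 206012_at on the 12 feeder and inhibitor arrays, with 1 point per array, colours for the 3 lines, thin lines joining the DMSO and inhibitor arrays of a line in a culture, and black bars for group means. NODAL, LEFTY1, 206012_at, CER1 and FST lie higher on feeders in every line, and GDF3 stands out in feeder-supported H9 at 9.94.

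With the inhibitor present, the same contrast between cultures gave 5 of 8 genes higher on feeders and 0 lower, where 47.1% of genes passed in either direction and 19.3% were higher. The groups did not overlap for 56% of all genes, with 23.9% higher on feeders. The share of called genes that were higher was 41.0%, and 57.5% with a shift to a common median. LEFTY1 read 12.59, 12.19 and 12.03 in H1, H9 and HSF1 on feeders and 9.57, 9.73 and 9.01 without, a difference of 2.83 (SE 0.292, adjusted p = 0.000197). NODAL read 10.45, 10.95 and 10.35 on feeders and 8.10, 7.37 and 7.78 without, also a difference of 2.83 (SE 0.320, adjusted p = 0.000366). Neither gene's groups overlapped. Probe set 237896_at of NODAL was also higher, by 2.23 (adjusted p = 0.000661), while 220689_at differed by -0.12 and did not pass (adjusted p = 0.691).

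CER1 with the inhibitor read 9.01, 12.25 and 8.64 on feeders in H1, H9 and HSF1 and 5.68, 5.38 and 6.42 without. Again H9 on feeders was far above the rest, and the difference was 4.14 (SE 0.821, adjusted p = 0.0061). FST read 10.70, 11.35 and 9.77 on feeders and 8.69, 8.92 and 9.20 without, a difference of 1.67 (SE 0.353, adjusted p = 0.00767) that was lost without H1 or without H9. GDF3 read 8.58, 9.53 and 8.59 on feeders and 8.29, 7.89 and 7.73 without; its difference of 0.93 had an adjusted p of 0.0495, and the call was lost in 8 of 11 alternatives, among them without the feeder-supported HSF1 arrays (0.97, adjusted p = 0.0602), with the ACTB covariate (0.75, adjusted p = 0.302) and without any 1 line. SMAD7 (-0.47), FOXH1 (-0.29) and SKIL (-0.15) did not pass. SKIL probe sets 217591_at and 206675_s_at fell by 0.80 (adjusted p = 0.0138) and by 0.64 (adjusted p = 0.0320).

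Markers of other cell types differed between cultures as well. On feeders with DMSO 39.3% of all genes passed in either direction and 15.2% were higher. There 9 of 10 tested endoderm and mesendoderm markers were higher and 0 lower. Their summed log2 level was 63.3 to 75.0 on feeders against 53.8 to 57.3 without, and SOX17 lay under 5 on every feeder-free DMSO array. Fibroblast markers, on probes made for human RNA, were higher for 6 of 18 and lower for 0, with summed levels of 143.8 to 160.4 against 130.0 to 148.0, and FAP under 5 on every feeder-free array. Neuroectoderm markers were higher for 4 of 7, at 52.0 to 53.9 against 47.6 to 48.8, and trophoblast and amnion markers for 2 of 6, at 41.4 to 42.2 against 36.6 to 38.2 over 7 genes. SIX3, a neuroectoderm marker, lay under 5 on every feeder-free DMSO array, and CGA, a trophoblast marker, on every array of both cultures. Stem cell markers were lower for 5 of 9, at 101.5 to 103.9 against 105.8 to 106.2. With the inhibitor present 47.1% of all genes passed in either direction and 19.3% were higher. Endoderm and mesendoderm markers were then higher for 9 of 10, neuroectoderm for 2 of 7 and trophoblast and amnion for 4 of 6. Fibroblast markers were higher for 5 of 18 and lower for 3, and stem cell markers were lower for 7 of 9. The labels do not say whether feeder cells were removed before RNA isolation. The part of these markers, or of mouse RNA, in the members' differences was not tested.

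Other genes of the pathway differed in part on feeders with DMSO, where 39.3% of all genes passed in either direction and 15.2% were higher. Of 10 tested genes for other ligands and their processing 6 were higher and 0 lower, with a median of 0.65. INHBB, an activin subunit, was higher by 1.31 (adjusted p = 0.00184), TGFB2 by 0.92, and the ligand-cleaving proteases FURIN and PCSK6 by 0.86 and 0.65. Of 8 receptor and co-receptor genes 0 passed. TDGF1, also in that list, had no probe set naming it alone. Of 8 SMAD and partner genes 0 were higher and 2 lower: TRIM33, a SMAD-binding ubiquitin ligase, at -0.86 and the Mediator subunit MED15 at -0.62. With the inhibitor present 47.1% of all genes passed in either direction and 19.3% were higher. Of the 10 ligand and processing genes 8 were then higher and 0 lower, with INHBA higher by 1.44. Of the 8 receptor and co-receptor genes 1 was higher and 3 lower, with ACVR1C at -0.93 and ACVR2B at -1.12.

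With DMSO, among 17 other inhibitors, LTBP3 was higher, by 0.60, and SMURF1 and PPM1A were lower, at -1.004 and -0.79. Of 8 tested target genes of early development 5 were higher and 0 lower, with a median of 0.83. They included the transcription factor genes EOMES (2.64, adjusted p = 0.0184), SOX17 (1.85), MIXL1 (1.16) and GSC (0.83), all of which are in the endoderm and mesendoderm list too. Of 11 targets of TGF-beta and activin in many cells 0 were higher, and TGFBI was lower, at -1.41.

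The inhibitor comparisons asked whether AZD3965 alters these genes in either culture. On feeders 0 of 8 genes passed, and 0 had an unadjusted p under 0.05, where 0.00581% of genes passed, 1 gene in all, and 1.66% had such an unadjusted p. The members' differences ran from -0.22 (SKIL) to 0.75 (CER1), with a median of 0.04 against 0.01 over all genes. CER1 was higher with the inhibitor in all 3 lines, by 0.26 in H1, 0.68 in H9 and 1.32 in HSF1, and FST by 0.54, 0.47 and 0.26. NODAL was also higher in each line, by 0.17, 0.35 and 0.76, and SKIL was lower in each, at -0.22, -0.12 and -0.32. None of these means passed, at 0.75 for CER1 (SE 0.821) and 0.42 for FST (SE 0.353), and adjusted p was 1.00 for all 4.

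Without feeders 0 of 8 genes passed as well, and 0 had an unadjusted p under 0.05, where 0.842% of genes passed and 7.74% had such a p. Of all genes called 71.7% were higher, and 58.7% with a shift to a common median. SMAD7 read 8.93, 8.36 and 8.09 in H1, H9 and HSF1 with DMSO and 9.38, 8.90 and 9.14 with the inhibitor. It was higher in each line, by 0.45, 0.54 and 1.05, though the groups overlapped, and the mean of 0.68 did not pass (SE 0.329, adjusted p = 0.699). When the feeder-supported HSF1 arrays were left out of the fit, the same feeder-free difference had an SE of 0.130 and an adjusted p of 0.0129. That fit called far more genes over the whole array than the main fit, so the 0.842% is not its background. Its count is given with the dependence on processing.

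LEFTY1 without feeders was changed by -0.26 in H1, 0.68 in H9 and 1.41 in HSF1, and did not pass (0.61, adjusted p = 0.687). SKIL probe set 206675_s_at was at -0.95 with the inhibitor, lower in every line, with an adjusted p of 0.0888. No member passed the test of a difference in inhibitor effect between cultures: 0 of 8 at an adjusted p under 0.05 and 0 at an unadjusted p under 0.05, where 0.0174% of genes passed. The largest estimate, for CER1, was 0.80 with an SE of 1.16, so this design bounds such differences only loosely.

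The medium comparison asked what medium conditioned by the fibroblasts does to feeder-free cells. In H9 cells NODAL, LEFTY1, GDF3, FST, SMAD7 and SKIL were higher in conditioned medium, 6 of 8 genes, and 0 were lower, where 16.4% of 16572 genes tested passed in either direction and 3.45% were higher. In HSF1 cells NODAL, LEFTY1, FST, SMAD7, FOXH1 and SKIL were higher, 6 of 8, and 0 lower, where 18.3% passed and 8.57% were higher. The groups did not overlap, with conditioned medium higher, for 9.74% of all genes in H9 and 22.3% in HSF1. The members' median differences were 0.76 in H9 and 0.61 in HSF1, against -0.03 and 0.03 over all genes. Of the genes called in H9 21.0% were higher, and 37.2% after quantile normalization and 46.0% with a shift to a common median.

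NODAL read 6.76, 6.72 and 6.92 in unconditioned and 8.21, 7.98 and 8.02 in conditioned medium in H9 cells. In HSF1 cells it read 7.07, 7.04 and 7.0 and then 7.92, 7.89 and 7.72. Both lines were higher in conditioned medium with no overlap, by 1.27 in H9 (SE 0.0879, adjusted p = 1.33e-07) and 0.80 in HSF1 (adjusted p = 8.75e-06). Probe set 237896_at was also higher, by 0.94 in H9 (adjusted p = 0.000747) and 0.58 in HSF1 (adjusted p = 0.0135). Probe set 220689_at differed by 0.23 and 0.08 and did not pass (adjusted p = 0.263 and 0.738). For the representing probe set the rise was smaller in HSF1 by its own test, with a difference of -0.47 between the lines (SE 0.124, adjusted p = 0.0322), and 7.73% of genes passed that test. This call was lost in 10 of 20 alternatives, among them leaving out single arrays of either line, with adjusted p up to 0.127. Of all genes called there 73.1% were higher, and 57.8% after quantile normalization and 51.9% with a shift to a common median.

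LEFTY1 rose most in conditioned medium among the members. In H9 it read 6.71, 6.94 and 6.85 and then 8.84, 8.50 and 8.37, a difference of 1.74 (SE 0.143, adjusted p = 8.51e-07). In HSF1 it read 5.93, 5.81 and 5.79 and then 7.47, 7.67 and 7.01, a difference of 1.54 (adjusted p = 1.61e-06). The groups were well apart in both lines, and the unconditioned HSF1 values lie under the array medians.

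Probe set 206012_at read 6.87, 7.04 and 6.64 and then 7.85, 7.93 and 7.92 in H9. In HSF1 it read 6.84, 6.69 and 6.47 and then 8.05, 8.09 and 7.72. It too was higher with no overlap, by 1.05 in H9 (SE 0.125, adjusted p = 0.000146, where 10.1% of 39849 probe sets passed) and 1.29 in HSF1 (adjusted p = 1.33e-05, where 11.4% passed).

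FST rose in both lines. It read 8.80, 8.82 and 8.76 and then 9.57, 9.66 and 9.93 in H9, a difference of 0.93 (SE 0.0888, adjusted p = 3.95e-06). In HSF1 it read 9.18, 9.34 and 9.36 and then 10.63, 10.59 and 10.45, a difference of 1.27 (adjusted p = 5.4e-08). All 3 probe sets of FST were higher in both lines, by 0.65 to 1.14 in H9 and 1.07 to 1.27 in HSF1.

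SKIL and SMAD7, whose representing probe sets had no call between cultures, rose in conditioned medium. SKIL read 11.10, 11.32 and 11.14 and then 12.10, 12.08 and 11.82 in H9, by 0.81 (SE 0.0769, adjusted p = 3.76e-06). In HSF1 it read 10.90, 10.86 and 10.83 and then 11.62, 11.64 and 11.53, by 0.73 (adjusted p = 5.81e-06). SKIL probe sets 217591_at and 206675_s_at, which were lower on feeders, were higher in conditioned medium in H9 by 0.74 (adjusted p = 0.00769) and 0.50 (adjusted p = 0.0447); in the fit over all probe sets the latter did not pass (adjusted p = 0.0506). In HSF1 they differed by 0.30 and 0.34 and did not pass.

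SMAD7 read 8.0, 7.75 and 7.87 and then 8.56, 8.50 and 8.68 in H9, by 0.70 (SE 0.0779, adjusted p = 1.69e-05). In HSF1 it read 7.67, 7.66 and 7.66 and then 8.06, 8.05 and 8.10, by 0.40 (adjusted p = 0.00176). The conditioned arrays lay above all unconditioned arrays of their line. The calls of NODAL, LEFTY1, FST, SMAD7 and SKIL held in all 14 alternatives in H9, those without unconditioned replicates 2 and 3 included, and in all 13 in HSF1.

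GDF3, FOXH1 and CER1 gave mixed results. GDF3 read 7.39, 7.08 and 7.24 and then 7.63, 7.78 and 7.69 in H9, a rise of 0.47 (SE 0.0985, adjusted p = 0.00447) that was lost without unconditioned H9 replicates 2 and 3, at an adjusted p of 0.222. In HSF1 its groups overlapped, at 7.70, 7.48 and 7.61 and then 7.63, 7.73 and 7.43, and the difference was 0.00047 (SE 0.0985). The difference between the lines, -0.47, did not pass (adjusted p = 0.0518).

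FOXH1 read 10.56, 10.69 and 10.58 and then 11.06, 11.10 and 11.12 in HSF1, a rise of 0.48 (SE 0.0721, adjusted p = 0.00019) with no overlap. In H9 it read 10.39, 10.46 and 10.67 and then 10.61, 10.67 and 10.71 and did not pass (0.16, adjusted p = 0.143), while its second probe set, 207644_at, was higher there by 0.46 (adjusted p = 0.0181). In HSF1 that second probe set differed by 0.33 and did not pass (adjusted p = 0.0678), so the call in each line depends on the probe set. CER1 stayed between 5.14 and 6.10 on all 12 medium arrays, near or below the array medians, with differences of 0.31 in H9 (adjusted p = 0.167) and 0.37 in HSF1 (adjusted p = 0.110). Of the 15 tested probe sets that name 1 member, 12 were higher in H9, where 12.3% of all passed, and 9 in HSF1, where 13.5% passed, and 0 were lower in either.

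**Figure D2:**
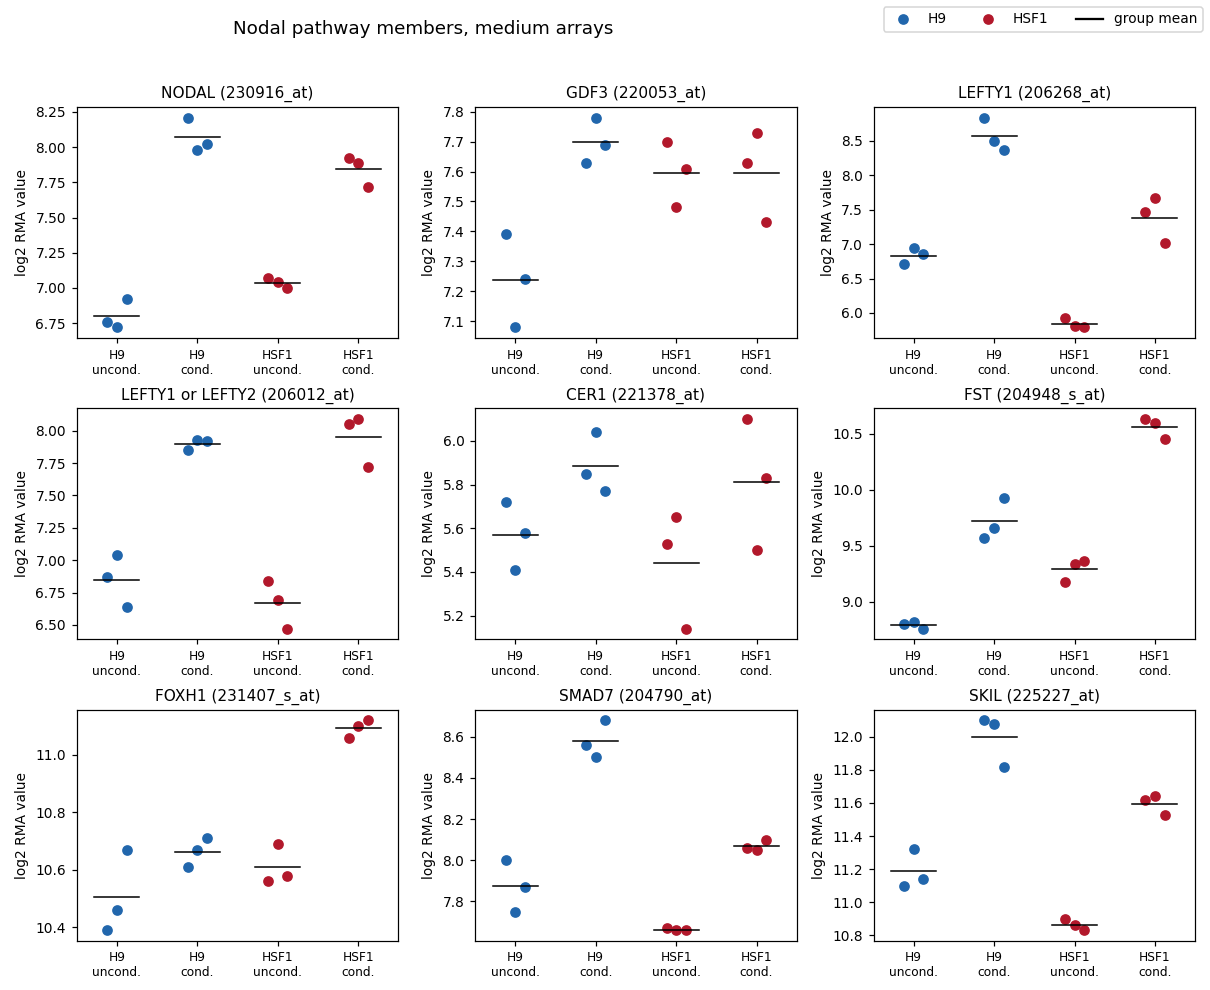
RMA log2 values of the 8 genes and of probe set 206012_at on the 12 medium arrays (3 replicates per group, black bars for group means). LEFTY1, NODAL, FST, SMAD7 and SKIL lie higher in conditioned medium in both lines with no overlap, and CER1 stays between 5.14 and 6.10.

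**Figure D3:**
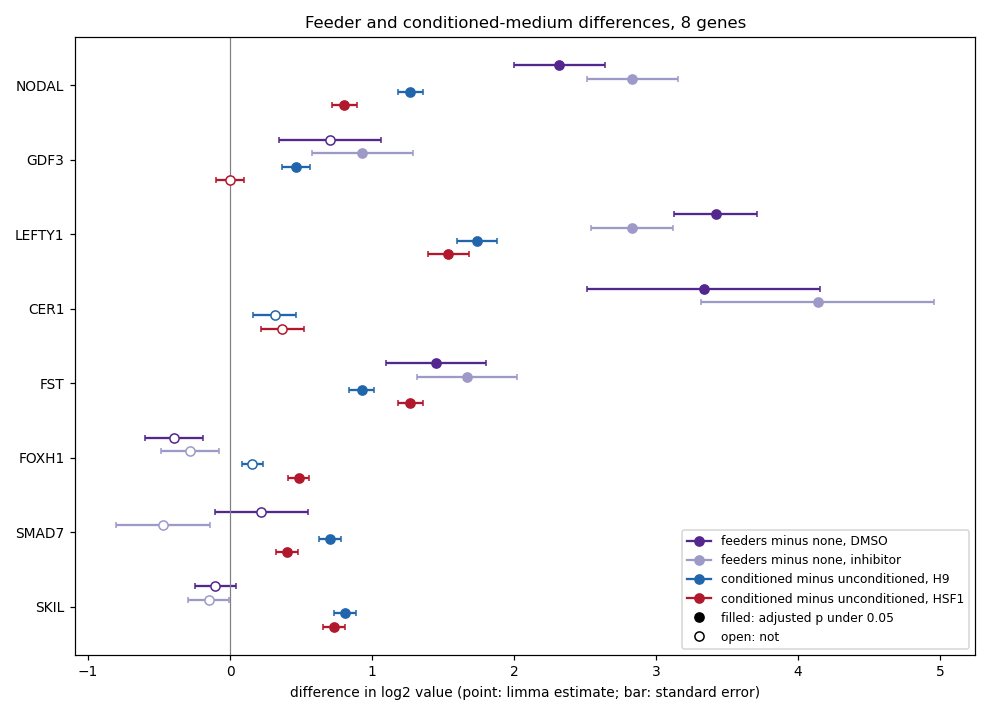
Differences in log2 value for the 8 genes in 4 comparisons, with points for the limma estimate, bars for its standard error, and filled points for an adjusted p under 0.05. CER1 has the largest feeder difference with inhibitor, 4.14, and no call with conditioned medium. By their representing probe sets SKIL, SMAD7 and FOXH1 are called only with conditioned medium, FOXH1 in HSF1 alone.

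**Figure D4:**
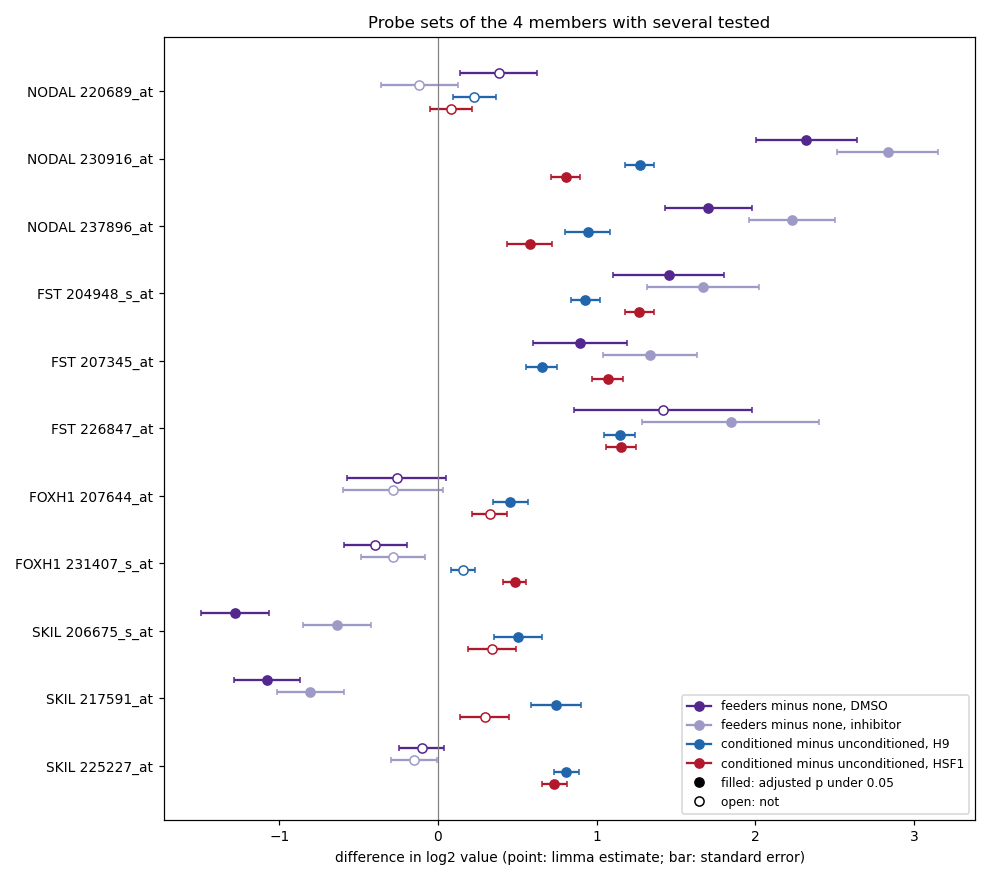
The same 4 comparisons for each tested probe set of NODAL, FST, FOXH1 and SKIL, in the fit over all probe sets that name 1 gene. SKIL 206675_s_at (-1.28) and 217591_at (-1.08) lie below 0 on feeders, where 225227_at is near 0, and all 3 lie above 0 with conditioned medium.

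Cell type markers were also counted in conditioned medium, where 16.4% of genes passed in H9 and 18.3% in HSF1, and 3.45% and 8.57% were higher. Of 8 tested endoderm and mesendoderm markers 2 were higher in H9 and 1 in HSF1, with 0 lower, and SOX17 lay under 5 on all 12 medium arrays. Fibroblast markers were higher for 3 and lower for 6 of 15 in H9, and higher for 1 and lower for 4 in HSF1. Stem cell markers were higher for 4 of 9 in H9, and higher for 3 and lower for 1 in HSF1. Neuroectoderm markers were higher for 1 of 7 in H9 and 4 in HSF1, where their summed level was 51.0 to 51.6 against 47.2 to 48.0. Trophoblast and amnion markers were higher for 1 of 6 in H9 and 3 in HSF1, at 40.3 to 40.9 against 37.1 to 37.8 over 7 genes. Their part in the members' differences was not tested.

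Other genes of the pathway went both ways in conditioned medium, where 16.4% of all genes passed in H9 and 18.3% in HSF1. INHBA, an activin subunit, was lower by -0.97 in H9 and -0.80 in HSF1, in a list of 10 ligands and processing genes with 1 higher and 1 lower in H9 (GDF11 higher, by 0.35) and 0 higher and 2 lower in HSF1 (INHBE at -0.82). The receptor gene TGFBR2 was lower in both, at -0.39 and -0.36, and of 8 receptor genes 0 were higher in H9 and 1 in HSF1, ACVR1C, by 0.55, with 1 and 2 lower. Of 8 SMAD and partner genes 0 passed in either line. Among 17 other inhibitors 3 were higher and 1 lower in H9, with the pseudoreceptor gene BAMBI at 0.77 and PMEPA1 at 0.48. In HSF1 4 were higher and 0 lower, with SMAD6 at 1.31 and PMEPA1 at 0.85.

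Of the 6 tested targets of early development NANOG was the 1 called in each line, higher by 0.37 in H9 and 0.23 in HSF1. Of 11 targets of TGF-beta and activin in many cells 3 were higher and 5 lower in H9, where SNAI2 (-0.81) and KLF10 (-0.46) were lower. In HSF1 3 were higher and 2 lower, with CCN2 at 1.16 and CCN1 at 0.61 (adjusted p = 2.6e-05).

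The lines themselves differed in unconditioned medium, where 4 of 8 members passed, 2 higher and 2 lower in HSF1, and 23.6% of genes passed. LEFTY1 was lower in HSF1 by -0.99 (SE 0.143, adjusted p = 0.000133) and SKIL by -0.33 (adjusted p = 0.00621). FST was higher by 0.50 (adjusted p = 0.000866) and GDF3 by 0.36 (adjusted p = 0.0140). The GDF3 call was lost in 5 of 13 alternatives and the SKIL call in 2, in both cases without unconditioned H9 replicates 2 and 3. NODAL (0.24, adjusted p = 0.0594), SMAD7 (-0.21, adjusted p = 0.0600), CER1 (-0.13) and FOXH1 (0.10) did not pass. Other probe sets differed in part. Probe set 207644_at of FOXH1 was higher in HSF1 by 0.55 (adjusted p = 0.00392). For SKIL, 217591_at differed by 0.007 and 206675_s_at by -0.42, and neither passed. For FST, 226847_at was higher by 0.77, and 207345_at, at 0.19, did not pass. In the fit over all probe sets 206012_at differed by -0.18 and did not pass (adjusted p = 0.365).

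Over the 24 arrays CER1 spanned 7.10 log2 units, LEFTY1 7.04, NODAL 4.24, FST 2.88 and GDF3 2.85. For these 5 genes the nearest profiles were found among 17301 genes as the smallest root mean square difference of log2 values, each centred on its mean over the 24 arrays. CER1 was nearest to NPPB, the gene of a natriuretic peptide (0.382), EOMES (0.486) and FOXQ1, a forkhead factor (0.530). EOMES read 7.61, 10.45 and 6.97 in H1, H9 and HSF1 on feeders with DMSO and 5.78, 5.99 and 5.34 without, the order of lines that CER1 has on feeders. LEFTY1 had no comparably near gene: DACT1 stood at 0.789, CAV1 at 0.950 and CDH11 at 1.03.

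NODAL was nearest to IGFBP7 (0.498), GAL (0.508) and VIM (0.508), GDF3 to FGF8 (0.300), LINC00261 (0.315) and PLAC8 (0.348), and FST to TFAP2C (0.341), HHEX (0.386) and HES4 (0.410). These distances describe the 24 arrays, which share culture conditions and lines, and carry no test.

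**Figure D5:**
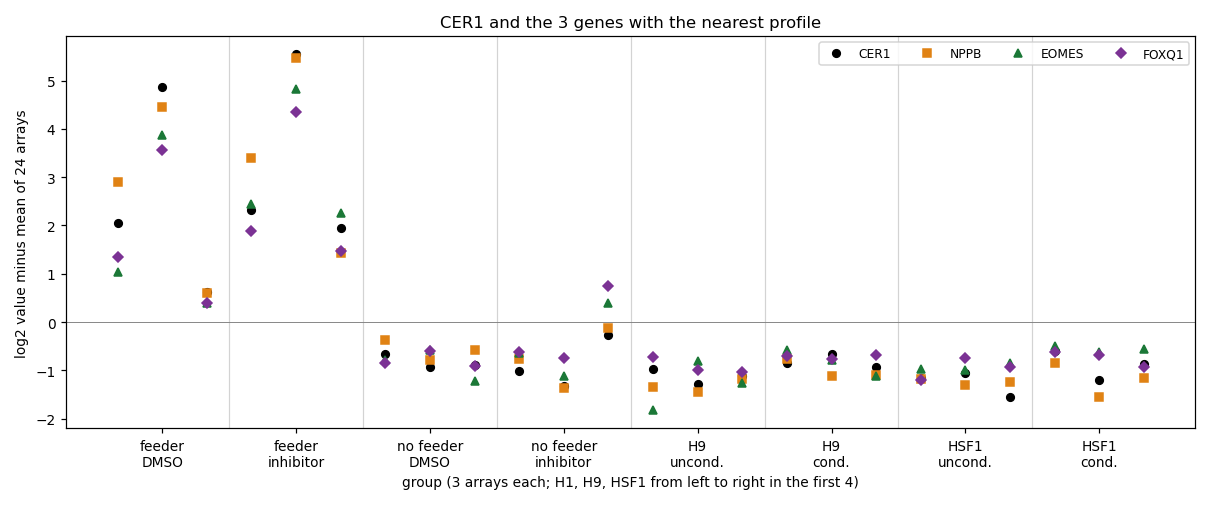
Log2 values of CER1 and of the 3 genes with the nearest profile, each minus its mean over the 24 arrays, with 1 point per array and gene in the 8 groups. All 4 genes peak in feeder-supported H9, where CER1 read 11.57 with DMSO and 12.25 with the inhibitor, and lie below that on the feeder-free arrays.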

How the data were processed

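RNA was measured on 24 Affymetrix U133 Plus 2.0 arrays. The authors deposited 1 table of log2 values, made by RMA per the submitters' processing notes; its version and the genome build were not given in the sources used here. RMA corrects background and usually brings arrays to a common distribution, but the deposited arrays do not share one (medians 6.09 to 6.35, interquartile ranges 2.45 to 3.30), so scaling was an alternative. The number of arrays limits the precision. Groups come from the sample titles. The members and all lists were chosen with earlier results of these data known.

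The feeder and inhibitor arrays (12) and the medium arrays (12) were fitted apart. A gene was tested where 3 or more of those 12 arrays lay above a log2 value of 5 (17218 and 16572 genes), with limma 3.58.1 in R 4.3.3 (lmFit, eBayes with an intensity trend) and Benjamini-Hochberg adjustment over all genes, at 0.05. The script was tested on simulated data. Line, which the replicate number marks in the feeder and inhibitor arrays, was a block there. The p-values there measure how far differences between groups vary from line to line, not differences in level between lines. For the medium arrays p-values measure the spread between replicates of a line. Probe sets were fitted apart in the same way. Named genes are the members, up to 4 genes of each pathway list with the smallest p in the DMSO culture comparison, up to 2 called ones in the others, and the 3 nearest profiles. Some genes of the lists are not analysed here. Promoter windows are RefSeq's, GRCh38.p14, used for 6 of 9 members. Windows on chromosome 8, where FOXH1 lies, were left out of the search of members. Alternatives were quantile normalization, a common median, the mean of all probe sets, no filter, no intensity trend, another block and left-out arrays; the ACTB covariate, the fits without unconditioned H9 replicates 2 and 3 and the fit over all probe sets were chosen after seeing the data.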

Additional observations from a re-analysis of the deposited data

Results flagged for a closer look

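The rise of NODAL in conditioned medium differed between the lines by a test of that difference, at -0.47 log2 units in HSF1 relative to H9 (SE 0.124, limma adjusted p = 0.0322). NODAL was higher in conditioned medium in both lines, so the difference is one of size. The same contrast for probe set 237896_at was -0.36 and did not pass (adjusted p = 0.303), and in the fit over all probe sets the NODAL probe set 230916_at did not pass either (adjusted p = 0.0549). Unconditioned H9 replicates 2 and 3 had high ACTB 3' to 5' differences, of 3.25 and 2.89. Without them the difference was -0.50 and did not pass (adjusted p = 0.0670), and with the ACTB difference as a covariate it was -0.49 (adjusted p = 0.0485), within a range of 0.0162 to 0.127 over 20 alternatives.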

How the results depend on the processing

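No called member value reversed. Over 26 calls of members, 301 of 333 values under alternatives kept direction and call and 32 lost the call; of 587 values under alternatives for results without a call, 22 gained one. On feeders with DMSO 6772 genes were called, and 2599 after quantile normalization, 1836 with no replicate block and 351 with the ACTB covariate; with the inhibitor 8103, and 3489, 3323 and 749. The inhibitor on feeders gave 1 gene and 0 with no replicate block. Without feeders it gave 145, and 62 with no replicate block, 222 with the covariate, and 1683 genes and 1 member (SMAD7) without the feeder-supported HSF1 arrays. The interaction gave 3 genes, and 0 after quantile normalization, with no replicate block or with no intensity trend. Conditioned medium in H9 gave 2720 genes, and 1469 with the covariate and 653 without unconditioned H9 arrays 2 and 3. The medium effect between lines called 1 member and 1281 genes; members were 3 after quantile normalization, 2 with a common median, and 0 with the mean of probe sets or without those H9 arrays (535 genes). HSF1 against H9 gave 3914 genes, and 2380 with the covariate and 1383 without those arrays.

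Leaving out each replicate or line in turn gave 2 to 5 members and 358 to 6387 genes on feeders with DMSO, 3 to 4 and 787 to 6545 with the inhibitor, 0 genes for the inhibitor on feeders and for the interaction, 3 to 421 for the inhibitor without feeders, 1320 to 5286 for conditioned medium in H9, 1852 to 2570 in HSF1, 0 to 4 members and 512 to 3281 genes for the medium effect between lines, and 2467 to 5542 genes for HSF1 against H9.

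On the medium arrays same-numbered replicates did not deviate together (r from -0.266 to 0.132), so the replicate block is only an alternative: with it the medium effect between lines called 0 members and 757 genes. Low signal limits CER1 without feeders; the causes were not tested.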

Other observations

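Feeder-free H9 and HSF1 cells were measured in both sets of 12 arrays, and the members' levels were not the same there. LEFTY1 read 9.05 in feeder-free H9 with DMSO and 6.71 to 6.94 in unconditioned medium, and 7.60 against 5.79 to 5.93 in HSF1. SKIL read 11.89 against 11.10 to 11.32 in H9, and 12.08 against 10.83 to 10.90 in HSF1. NODAL read 7.54 against 6.72 to 6.92 in H9, and 7.36 against 7.0 to 7.07 in HSF1. FST and FOXH1 went the other way in HSF1, at 8.97 against 9.18 to 9.36 and at 10.21 against 10.56 to 10.69. In H9 FST lay at 8.75 against 8.76 to 8.82 and FOXH1 at 10.44 against 10.39 to 10.67. Over all 54675 probe sets the median of the same difference was 0.04 in H9 and 0.02 in HSF1. The 5th and 95th percentiles were -0.70 and 0.61 in H9 and -0.50 and 0.46 in HSF1. The HSF1 differences of NODAL (0.32), FST (-0.32) and FOXH1 (-0.40) lay within those percentiles. With 1 DMSO array per line there is no test, and DMSO, medium and the set of arrays cannot be told apart.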
